A study of Mus musculus with 4 samples.

Results

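Circular RNAs (circRNAs) from 5 host genes of heart muscle structure and membrane repair, Fhl2, Mlip, Dysf, Tpm1 and Sptbn1, were followed in mouse heart after sham surgery and after myocardial ischemia/reperfusion (I/R). Every circRNA whose host label held 1 of these symbols was taken, which gave 13 of the 1046 circRNAs of the series and 153 of 7303 back-splice reads (2.10%). The hosts were picked with I/R against sham results already known, including the back-splice change of Sptbn1 and the non-junction changes of Dysf and Mlip. The values of this contrast are therefore a description, and the p-values of the fits over all circRNAs are printed as values of those fits.

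Total RNA of heart tissue from C57BL/6 mice was sequenced in 4 libraries, sham 1 and sham 2 from sham surgery and I/R 3 and I/R 4 from mice of the myocardial I/R injury model, in which blood flow to the heart muscle is stopped and restored. Age, sex, duration of ischemia and time of reperfusion are not given in the sources used here, nor whether each library is from an animal of its own. Removal of linear RNA before sequencing is not mentioned either. The p-values thus measure no more than the spread among 4 libraries, part of which may be technical. In the fits this spread is shared over circRNAs or hosts, so a small p at 1 circRNA leans on the others too. Values for the 4 libraries are given in the order sham 1, sham 2, I/R 3, I/R 4 unless stated otherwise. Libraries held 1627 to 1982 back-splice reads, and 1 read was worth 505 to 615 reads per 1000000 back-splice reads (CPM). Of a list of 12 cardiomyocyte markers 5 were hosts, Atp2a2, Myh6, Ryr2, Tnnt2 and Ttn. In sum they had 171, 91, 197 and 302 back-splice reads, so both I/R libraries lay above both sham libraries. Of these reads 1 Ttn circRNA alone held 47, 0, 79 and 107. With reads summed per host, the edgeR log2 fold change, I/R against sham, was 1.19 (SE 0.68) for Ttn. It was -0.97 (SE 0.81) for Myh6, -0.94 (SE 1.50) for Atp2a2 and -0.038 (SE 0.48) for Ryr2, and Tnnt2 was not fitted. The edgeR adjusted p ran from 0.843 to 0.977. The fitted signs differ between these hosts, but with such SEs their directions are not settled. Whether they share a trend was not tested, nor was their part in the results below. Endothelial marker hosts had 6, 7, 6 and 10, smooth muscle and pericyte hosts 0, 3, 2 and 0, and no fibroblast or leukocyte marker of the lists was listed as a host. In tissue RNA, fewer cells of a type and less RNA per cell cannot be told apart.

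A circRNA forms when the splice donor of a downstream exon joins the acceptor of an upstream exon, and reads across this back-splice junction are the only ones that belong to the circle alone. The hosts act at different places in the cardiomyocyte. Tpm1 encodes alpha-tropomyosin, which lies along the actin filament and gates its contact with myosin, and Fhl2 encodes a LIM-domain protein that binds titin in the sarcomere. Mlip encodes the muscle protein that interacts with lamin A/C of the nuclear envelope, Sptbn1 encodes beta-II spectrin of the membrane skeleton, and Dysf encodes dysferlin, a calcium-binding ferlin needed to reseal torn muscle membranes.

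The circles were placed on exons by their span, since the files use mouse genome build mm9 and the annotation at hand (GENCODE M21) uses GRCm38. A circRNA was placed where the distance between its ends equalled that from an annotated exon start to an exon end of its host, with 1 common shift for all circRNAs of a gene. This placed 12 of the 13. The 7 Mlip circRNAs shared 1 shift, as did the pair from Fhl2 and the pair from Dysf, while Sptbn1 rested on a single circRNA. For Tpm1 no exon pair of the gene matched. The junctions of the leading circRNAs, and of those that share an end with them, are shown 5′ to 3′ from the GENCODE M21 transcript sequences, on the strand of the transcript (plus for Dysf, minus for the other hosts), 15 bases on each side, with the acceptor exon in capitals. Coordinates are those of the files, in mm9.
Fhl2 11557 bp: aaaccatcatgccagATTGCTGAAAGACAG
Fhl2 179 bp: ggctgcgactgcaagATTGCTGAAAGACAG
Mlip 25973 bp: ctgttttctgagcagGCACTAGATGAACCA
Mlip 43090 bp: tctgagagccaactgCAATACAAGACCATG
Mlip 14053 bp: ctcttggaacagaagCTAATCTCTCCCACT
Mlip 13978 bp: ctcttggaacagaagAAAACACCACCTGTC
Dysf 2735 bp: ctcattcctgtccagACGGAGGACACAGAT
Dysf 22939 bp: ctcattcctgtccagGGCGGCATGGTGGAT
Sptbn1 194 bp: tcaaggccctggcagAACTCTGAAAAGTAA

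Reused ends are known from the coordinates. The sequences come from the annotation at the placed ends and not from reads, so shared letters restate shared coordinates. Both Fhl2 junctions have the same capitals because they enter at the same acceptor, that of exon 2 of 6 (transcript Fhl2-201), and leave from exon 3 or from exon 2. Both Dysf junctions have the same small letters because they leave from the donor of exon 40 of 55 (Dysf-204), and they enter at exon 37 or exon 31. In Mlip the junctions of 14053 and 13978 bp leave from 1 donor and enter at acceptors 75 bases apart, at the start of a long exon.

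The circles from Fhl2 and Sptbn1 take in the exon with the annotated start codon. With every exon between the ends kept, the longer Fhl2 circle (chromosome 1, 43198543 to 43210099) would hold 354 bases, 331 of them coding and the rest 5′ UTR. The shorter one (43209921 to 43210099) is exon 2 alone, 179 bases with 156 coding. The Sptbn1 circle (chromosome 11, 30119579 to 30119772) is a single exon of 194 bases, 148 of them coding, and exon 2 of 36 in Sptbn1-201. In 1 of the 4 annotated transcripts with this acceptor end the exon is the first of the transcript, so its upstream end is a transcript start there. The Mlip and Dysf circles lie wholly in coding sequence. The lengths of the 7 Mlip circles (219 to 2046 bases), of both Dysf circles (507 and 1062 bases) and of the longer Fhl2 circle are multiples of 3, and those of the shorter Fhl2 circle and the Sptbn1 circle are not.

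All 13 circRNAs are annotated as exonic in the files, as are 951 of the 1046 of the series. None of the 13 shares its host label with another gene, and 9 (69.2%) carry a circBase identifier, against 67.8% of the whole series. Without an identifier were the Tpm1 circRNA, both Dysf circRNAs and the shorter Fhl2 circRNA. Spans ran from 179 to 66265 bp with a median of 14053 bp, against 8814 bp over the series. Of the 13, 4 were listed in every library, 3 in 3 libraries, 4 in 2 and 2 in 1. Over the series 102 of the 1046 were listed in every library. The files list no circRNA with fewer than 2 reads, so a circRNA not listed in a library had 0 or 1 read there, which allows an expected count of up to 4.74 reads (95% Poisson limit, counting error only).

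**Figure D1:**
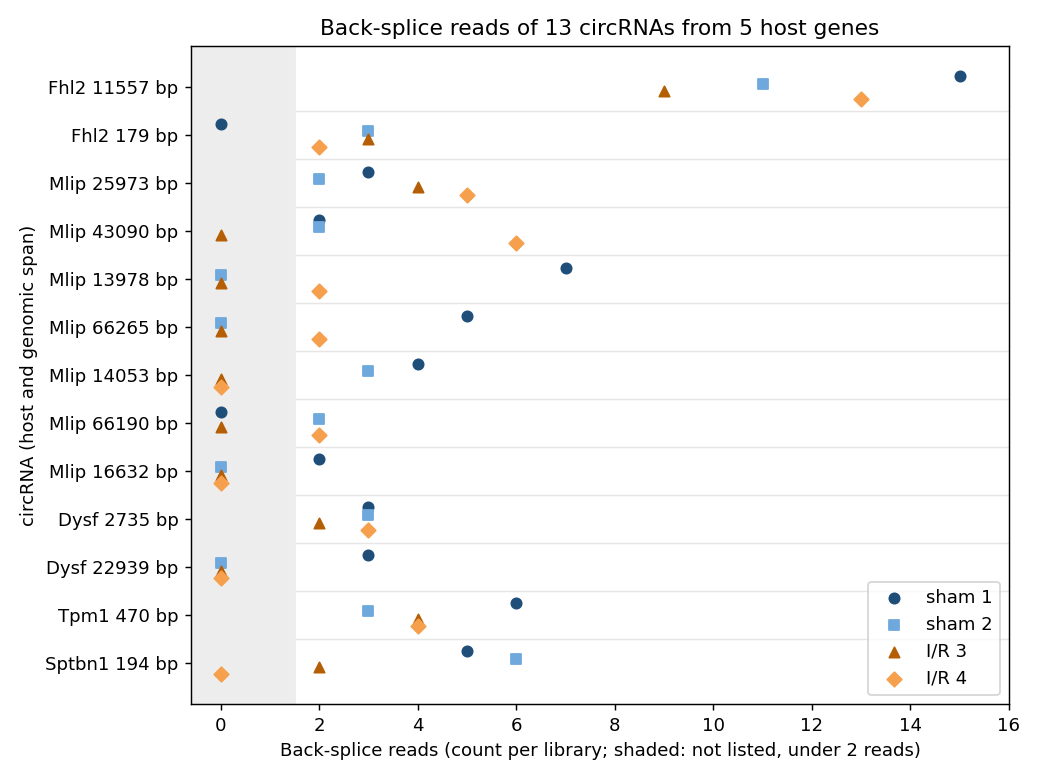
Back-splice reads (x axis, count) of the 13 circRNAs (y axis, named by host and genomic span) in each library; the shaded strip holds libraries in which a circRNA was not listed. The longer Fhl2 circRNA stands apart with 9 to 15 reads in every library, while no other circRNA exceeds 7.

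Back-splice reads were compared first, with edgeR's quasi-likelihood test over all 158 circRNAs that had 10 or more reads in total and were listed in at least 2 libraries. Of the 13 circRNAs 6 met this filter, and 0 of the 6 passed an adjusted p of 0.05. Over all 158 circRNAs 0 passed as well (0%), with 9 at an unadjusted p under 0.05 in edgeR, 6 in DESeq2 and 7 in limma-voom, none of them from these hosts. Fitted changes were above 0 for 2 of the 6 and below 0 for 4, with a median log2 fold change of -0.19, against 0.060 over the 158. In CPM, both I/R libraries lay below both sham libraries for 3 of the 6 and above them for 1, where 20.9% and 17.7% of the 158 did so. With the TMM factors of the fit the order held for Sptbn1 (below) and the 25973 bp circRNA of Mlip (above), and was lost for Fhl2 and Dysf.

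Fhl2, the LIM-domain host, had the most abundant circRNA of the 5 hosts, placed 17 of 1046 by reads. Its 11557 bp circRNA had 15 and 11 reads in the sham libraries and 9 and 13 in the I/R libraries. The counts overlap. Scaled to library size both I/R libraries were lower, at 5774 ± 1110 CPM against 7349 ± 831 CPM (SD, n = 2), but with the TMM factors of the fit I/R 4 lay above sham 2, at 7167 against 5854 CPM. The log2 fold change was -0.23 with an SE of 0.39 (edgeR adjusted p = 0.920), and it was 0.019 without sham 1. The 179 bp circRNA from the same acceptor had 0, 3, 3 and 2 reads, too few to test. Together they made up 0.794% and 0.860% of the sham libraries' back-splice reads and 0.665% and 0.757% of those of I/R. Relative to its level this range was narrower than for any other of the 5 hosts. Dysf, Tpm1 and Sptbn1 had at most 6 reads in a library, where counting error alone widens the relative range.

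Mlip, the lamin-interacting host, had the most circRNAs, 7, with 53 reads spread over them. They use 3 donors and 5 acceptors. The donor at 77012572 (chromosome 9, minus strand) was used by 4 circRNAs and held 10, 4, 4 and 9 of the reads. The most abundant, of 25973 bp (77012572 to 77038544), spans exons 6 to 11 of 14 in Mlip-205. It had 3, 2, 4 and 5 reads, so both I/R libraries lay above both sham libraries, at 2370 ± 216 CPM against 1408 ± 253 CPM (SD, n = 2). Its log2 fold change was 0.83 with an SE of 0.60 (edgeR adjusted p = 0.920). The 43090 bp circRNA (77021766 to 77064855, exons 5 to 10) had 2, 2, 0 and 6 reads, and I/R 3 and I/R 4 lay on opposite sides of sham. It was fitted at 0.57 with an SE of 1.51 (edgeR adjusted p = 0.922), at 1.43 without I/R 3 and at -0.44 in limma-voom.

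The remaining 5 Mlip circRNAs had 2 to 9 reads and were not tested. Those of 13978 bp (77064784 to 77078761), 66265 bp (77012572 to 77078836), 14053 bp (77064784 to 77078836) and 66190 bp (77012572 to 77078761) enter at 1 of the acceptors of the long exon, which has 1545 bases from the upstream acceptor (exon 4 of Mlip-205). The 13978 bp circRNA had 7, 0, 0 and 2 reads. The 14053 bp circRNA, which differs from it only by the acceptor, had 4, 3, 0 and 0. The 66265 bp circRNA had 5, 0, 0 and 2 reads, the 66190 bp circRNA 0, 2, 0 and 2, and the 16632 bp circRNA (77012572 to 77029203) 2 reads in sham 1 alone. No library therefore listed all 7, and I/R 3 listed only that of 25973 bp.

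Grouped by acceptor, a grouping chosen after the values were seen, the 4 circRNAs that start at the long exon held 16, 5, 0 and 6 reads. The 3 that start further downstream held 7, 4, 4 and 11. The reads of circles with the long exon were thus highest in sham 1 and unlisted in I/R 3, while those of the other circles were highest in I/R 4. In counts both groups overlap between I/R and sham. In CPM of listed reads the circles with the long exon were lower in both I/R libraries, at 8466, 3073, 0 and 3027. There sham 2 and I/R 4 are close together. A circle that is not listed can hold 1 read, so the 0 does not show absence. No test was made. Summed over the host, Mlip had 23, 9, 4 and 17 reads, a wider range within each group than between their means, with a log2 fold change of -0.59 and an SE of 0.77 (edgeR adjusted p = 0.922). The host sum turned to 0.17 without sham 1 and to 0.10 without I/R 3, and was -1.91 without I/R 4.

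**Figure D2:**
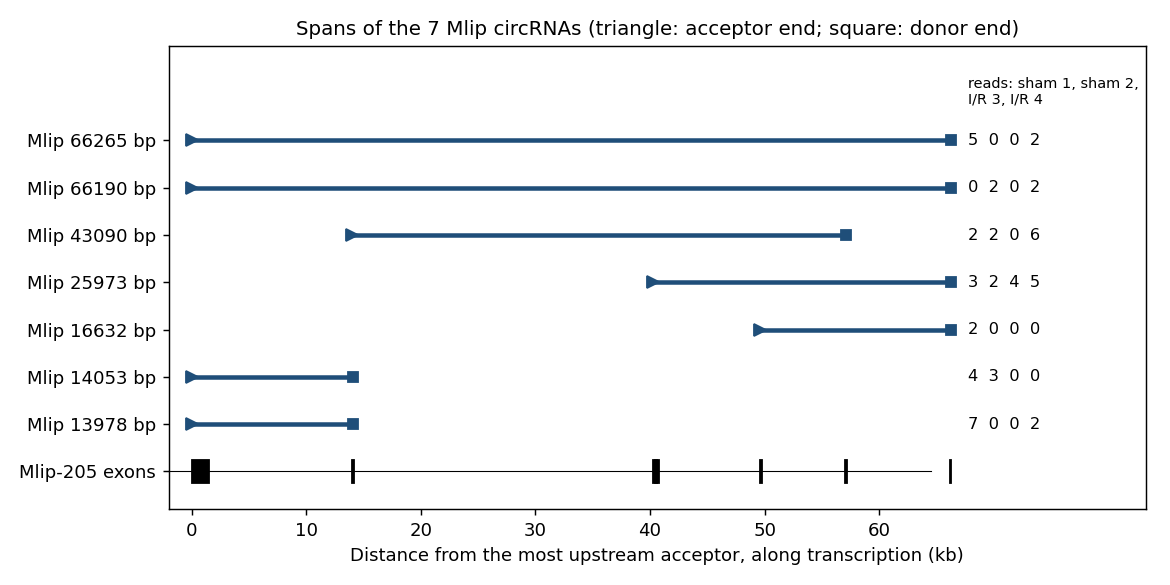
Spans of the 7 Mlip circRNAs along the gene (x axis, kb from the most upstream acceptor in the direction of transcription), with the exons of Mlip-205 as black boxes and the reads of each library at the right. The 4 circles that begin at the long exon on the left have 0 reads in I/R 3, and 4 circles end at the donor on the far right.

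Dysf, the membrane repair host, had 2 circRNAs with 14 reads. That of 2735 bp (chromosome 6, 84099669 to 84102403, exons 37 to 40) had 3 reads in sham 1, sham 2 and I/R 4 and 2 in I/R 3. In CPM both I/R libraries were lower, at 1311 ± 286 against 1716 ± 181 (SD, n = 2), though the counts overlap, as do the TMM-scaled values. The log2 fold change was -0.24 with an SE of 0.69 (edgeR adjusted p = 0.922). The 22939 bp circRNA with the same donor (84079465 to 84102403, exons 31 to 40) had 3 reads in sham 1 and was not listed elsewhere.

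Sptbn1, the spectrin host, had 1 circRNA with 5, 6, 2 and 0 reads. Both sham libraries were above both I/R libraries, at 3167 ± 737 CPM against 554 ± 784 CPM (SD, n = 2). The fitted log2 fold change was -2.30 with an SE of 1.11, and it did not pass (edgeR adjusted p = 0.920). Without I/R 3, the I/R library with listed reads, it was -5.53, and without I/R 4 it was -1.45. The first of these rests on a library with no listed read and is no bound on the change.

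Tpm1, the thin filament host, had 1 circRNA (chromosome 9, 66878836 to 66879305) with 6, 3, 4 and 4 reads. The sham libraries lay on both sides of the I/R libraries, and the log2 fold change was -0.15 with an SE of 0.57 (edgeR adjusted p = 0.933), or 0.42 without sham 1. Tropomyosin genes share near-identical stretches, which may make reads here uncertain, and this was not tested. The circle is uncertain too, as its 470 bp matched no exon pair.

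With reads summed per host, 0 of the 5 hosts passed and 0 of 154 hosts overall (0%), with 8 hosts at an unadjusted p under 0.05 in edgeR, 5 in DESeq2 and 5 in limma-voom, none of them among these 5. All 5 were fitted below 0, at -2.32 (SE 1.17) for Sptbn1, -0.81 (SE 0.80) for Dysf, -0.59 for Mlip, -0.16 (SE 0.66) for Tpm1 and -0.098 (SE 0.37) for Fhl2 (edgeR adjusted p from 0.843 to 0.942), where 51.3% of all hosts were fitted below 0. Beside the values for Mlip, that of Fhl2 was 0.057 without I/R 3 and that of Tpm1 0.36 without sham 1. In sum the 5 hosts held 2.91% (95% Clopper-Pearson interval 2.20 to 3.77) and 2.15% (1.50 to 2.98) of reads in the sham libraries, and 1.33% (0.854 to 1.97) and 1.97% (1.40 to 2.68) in those of I/R. I/R 4 lay close to sham 2, and their intervals overlap widely.

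The authors' deposited table of their own comparison lists 11 of 1046 circRNAs (1.05%) with an adjusted p under 0.05, and 0 of these 13. Its log2 fold changes equal those of a limma-voom fit of I/R against sham on all circRNAs to within 2.1e-14, which gives their direction. In the authors' deposited table the 13 circRNAs run from -3.002 for the 14053 bp circRNA of Mlip (adjusted p = 0.0836), with -2.44 for Sptbn1 (adjusted p = 0.524), to 1.06 for the 179 bp circRNA of Fhl2 (adjusted p = 0.524).

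Non-junction reads were compared next. The files count them at the splice sites of each listed circRNA. They can come from linear transcripts or from inside the circle. A file gives them only for circRNAs it lists, and the fit covered the 102 circRNAs listed in every library, 4 of them from these hosts. At the adjusted p of 0.05, 2 of the 4 passed, against 8.82% of the 102. Dysf was lower in I/R, as were 4.9% of the 102 at that threshold, and Mlip was higher, as were 3.92%. In scaled reads both I/R libraries lay above both sham libraries for 2 of the 4, Mlip and Tpm1, and for 27.5% of the 102, and below them for 1, Dysf, and for 31.4% of the 102. The hosts were chosen with these calls known, so nothing is read from these counts. Leaving out the TMM scaling factors moved the median log2 fold change of the 102 from -0.036 to -0.23 and the calls from 4 higher and 5 lower to 0 higher and 4 lower.

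The splice sites of the 2735 bp Dysf circRNA had 164 and 189 non-junction reads in the sham libraries, while the I/R libraries had 96 and 79. Both I/R libraries were well below both sham libraries, at 1607 ± 288 CPM (here per 1000000 non-junction reads, TMM-scaled) against 3043 ± 289 CPM (SD, n = 2). These reads fell in I/R by 0.92 on the log2 scale, with an SE of 0.19 (edgeR adjusted p = 0.000142), the third lowest change of the 102. The adjusted p was below 0.05 in 9 of 10 alternatives, with changes from -1.12 to -0.75, and was 0.128 without I/R 4. The circRNA itself had 2 or 3 back-splice reads in each of these libraries.

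The splice sites of the 25973 bp Mlip circRNA had 127 and 103 non-junction reads in the sham libraries, and the I/R libraries had 147 and 170. Both I/R libraries were above both sham libraries, at 2896 ± 174 CPM against 1984 ± 303 CPM (SD, n = 2). The log2 fold change was 0.55 with an SE of 0.19, just past the threshold (edgeR adjusted p = 0.0489). The direction was the same in all 10 alternatives, from 0.35 to 0.71, but the adjusted p passed in 2 of them and reached 0.354 without sham 2. The other Mlip circRNAs are not in the fit. Where a circRNA was listed in both groups its non-junction reads were higher in I/R 4 than in sham, at 108 against 74 and 71 for the 43090 bp circRNA, 89 against 74 for that of 13978 bp, 97 against 78 for that of 66265 bp and 109 against 78 for that of 66190 bp. These sites overlap with each other and come from 1 I/R library.

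The 11557 bp Fhl2 circRNA had 1290, 1164, 801 and 1171 non-junction reads at its sites. Only I/R 3 was low, and I/R 4 lay between the sham libraries after scaling. The log2 fold change was -0.24 with an SE of 0.19 (edgeR adjusted p = 0.450), and 0.024 without I/R 3. The 179 bp circRNA showed the same low library, with 1472 reads in sham 2, 1035 in I/R 3 and 1525 in I/R 4. The Sptbn1 sites had 561 and 508 reads in the sham libraries and 458 in I/R 3, or 9711, 8729 and 8640 CPM, while I/R 4 has no value since the circRNA was not listed there.

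Tpm1 had by far the most non-junction reads of the 4, 17212, 12221, 15816 and 22506, which was 23.7% to 34.7% of the non-junction reads of the 102 circRNAs in a library. The scaled values of sham 1 and I/R 3 almost coincide, at 297940 and 298370 CPM, with sham 2 below and I/R 4 above them. The log2 fold change was 0.46 with an SE of 0.27 (edgeR adjusted p = 0.243), and without I/R 3 it passed at 0.70 (adjusted p = 0.00317). With the Tpm1 reads left out of the library size and no scaling factors, the change at Dysf was -1.01 (adjusted p = 4.26e-05) and that at Mlip 0.45 (adjusted p = 0.124) (edgeR).

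**Figure D3:**
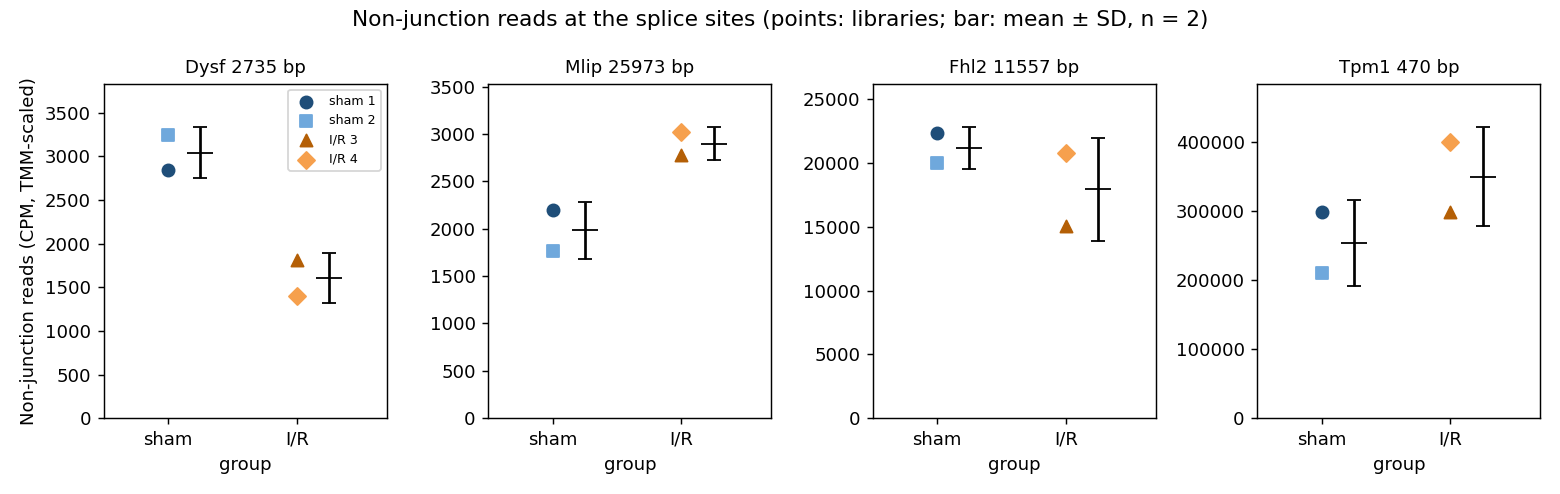
Non-junction reads (y axes, TMM-scaled CPM, from 0) for the 4 circRNAs of these hosts that every library listed, by group, with a point per library and the mean ± SD of 2 libraries beside them. The I/R libraries lie below sham at Dysf and above sham at Mlip, while at Fhl2 the groups overlap and at Tpm1 I/R 3 sits at the level of sham 1.

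**Figure D4:**
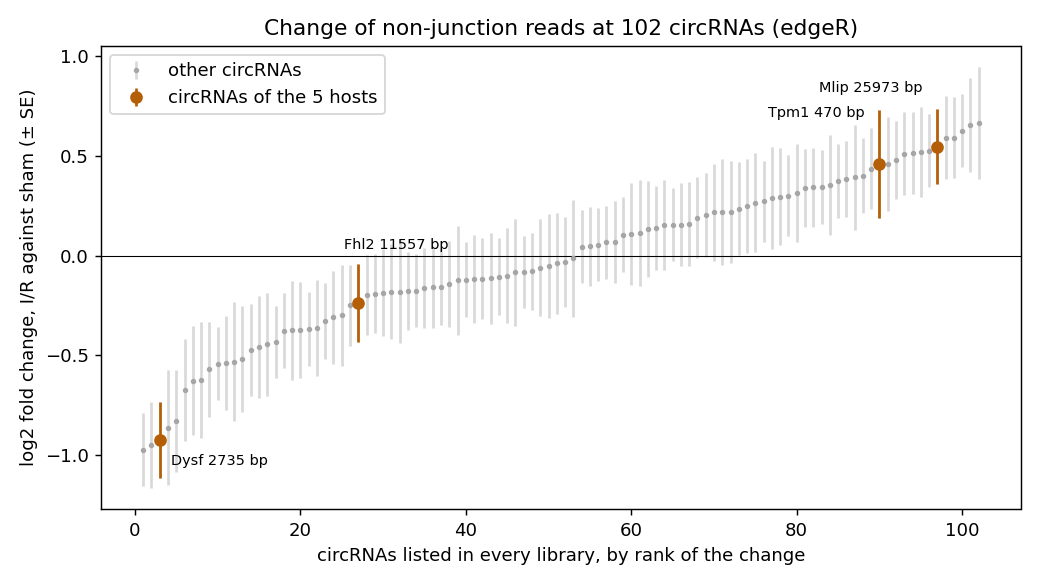
log2 fold change of non-junction reads, I/R against sham (y axis, ± SE, edgeR), of the 102 circRNAs in order of the change (x axis), with the 4 from these hosts in orange. Dysf lies at rank 3 from the lowest at -0.92 and Mlip at rank 6 from the highest at 0.55, with Fhl2 and Tpm1 between them. All 4 lie within the range of the others.

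The circular share sets both kinds of read against each other at the same sites, as 2J/(2J + N), where J counts the back-splice and N the other reads. Averaged over the libraries it was low at these hosts, at 4.74% for Mlip, 4.42% for Dysf, 2.12% for Fhl2 and 0.0512% for Tpm1, against a median of 11.03% over the 102 circRNAs. In that order of shares they stood at places 81, 83, 91 and 102 of 102. Tpm1 thus paired the lowest share of all with 17 back-splice reads.

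At Dysf the share was 3.53% (95% Clopper-Pearson interval 0.741 to 9.81) and 3.08% (0.645 to 8.61) in sham and 4.00% (0.495 to 13.4) and 7.06% (1.51 to 18.7) in I/R. Both I/R values were above both sham values, with means of 5.53 ± 2.16% and 3.30 ± 0.32% (SD, n = 2). The permutation test, exact and two-sided, gave p = 0.333, the smallest value possible with 2 libraries against 2. At Mlip the 25973 bp circRNA had shares of 4.51% and 3.74% in sham and 5.16% and 5.56% in I/R, again with both I/R values higher, at 5.36 ± 0.28% against 4.12 ± 0.55% (SD, n = 2), and the same exact p = 0.333. Such an order, with both I/R shares on top, was seen in 2 of the 4 circRNAs and in 30.4% of the 102. Each share rests on 2 to 5 back-splice reads, and all 4 intervals overlap at either host. The shares of the less frequent Mlip circRNAs rest on as few reads and went different ways, from 15.9% in sham 1 to 4.30% in I/R 4 for that of 13978 bp, and from 5.13% and 5.33% in the sham libraries to 10% in I/R 4 for that of 43090 bp.

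At Fhl2 the shares were 2.27%, 1.85%, 2.20% and 2.17%, so both I/R libraries lay between those of sham (exact permutation p = 1, two-sided). The low non-junction count of I/R 3 went with a low back-splice count, 801 and 9. At Tpm1 the shares were 0.0697%, 0.0491%, 0.0506% and 0.0355%, and the groups overlapped (exact permutation p = 0.667, two-sided). At Sptbn1 they were 1.75% (0.573 to 4.02) and 2.31% (0.855 to 4.92) in sham and 0.866% (0.105 to 3.08) in I/R 3, with no value for I/R 4.

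The change of back-splice against non-junction reads was also fitted in edgeR with a term per library, in which scaling between libraries cancels. Of the 4 circRNAs 0 passed, and 1 of the 102 did (0.98%), with 6 at an unadjusted p under 0.05 in edgeR, 2 in DESeq2 and 11 in limma-voom, none of them from these hosts. The log2 ratio change was 0.77 with an SE of 0.65 for Dysf (adjusted p = 0.839), 0.36 with an SE of 0.51 for Mlip (adjusted p = 0.884), 0.082 with an SE of 0.38 for Fhl2 (adjusted p = 0.921) and -0.53 with an SE of 0.62 for Tpm1 (adjusted p = 0.839), all from edgeR. A change in the ratio of circular to other reads was not detectable at this depth for any of the 4. At Dysf the 11 back-splice reads in all are too few to tell no change from a large one.

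**Figure D5:**
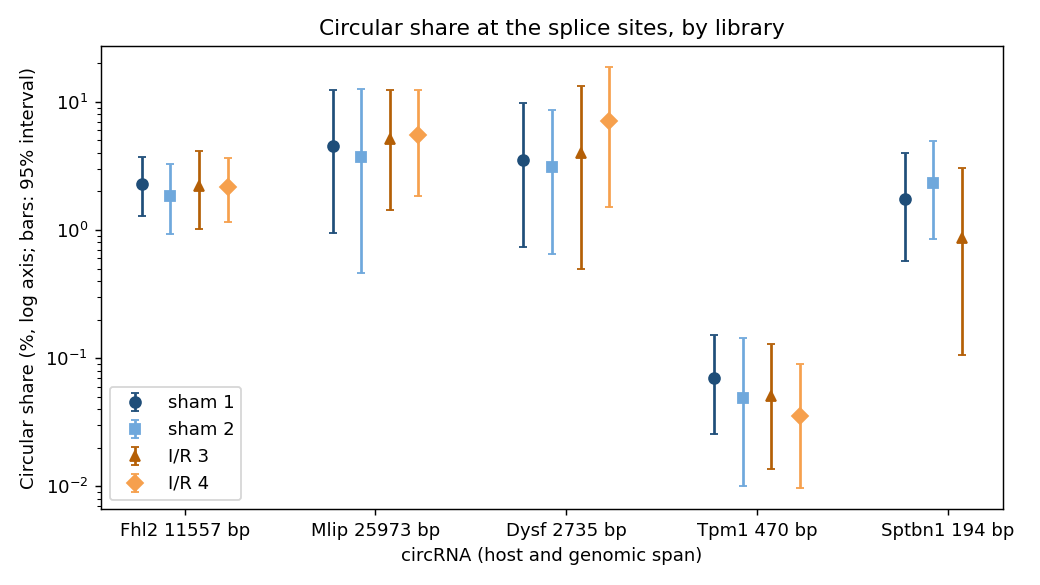
Circular share (y axis, percent, log axis) at the splice sites of 5 circRNAs (x axis) in each library, with 95% Clopper-Pearson intervals for counting error. Tpm1 lies far below the others at 0.0355% to 0.0697%, and the intervals of the groups overlap at every circRNA.

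Other hosts with related roles gave few circRNAs to set beside these. Of 16 thin filament genes only Tnnt2 was listed besides Tpm1, of 26 Z-disc and LIM-domain genes only Pdlim5 besides Fhl2, and of 31 membrane repair genes, ferlins, annexins and caveolae proteins among them, only Anxa7 besides Dysf. Of 15 genes of the lamina and nuclear envelope none was listed besides Mlip. None of the circRNAs of these other hosts had enough reads to be tested. Of 29 spectrin, ankyrin and costamere genes, Ank2, Dmd, Dst, Dtna, Macf1, Sptan1 and Utrn were listed with 9 circRNAs. The 1 tested among them, of the dystrophin relative Utrn (chromosome 10, 12156079 to 12175362), was listed with 3, 2, 3 and 2 reads and a log2 fold change of 0.012 (SE 0.75, edgeR adjusted p = 0.999). Thick filament, M-band and titin hosts had 10 tested circRNAs, 5 fitted above 0 and 5 below (median -0.27, against 0.060 over the 158), and 0 passed. Their most abundant ones, both from Ttn, had log2 fold changes of 1.96 (SE 1.77) and 1.33 (SE 0.62), each with an edgeR adjusted p = 0.920.

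Among the other circRNAs listed in every library, those with the most similar profile were found by the root mean square difference of centred log2 CPM over the 4 libraries. Nearest to the 11557 bp circRNA of Fhl2 was a chromosome 14 span whose host label is n/a (55565150 to 55592033, 34, 25, 20 and 33 reads), at 0.075. The circRNA of Erbin (16, 12, 11 and 14 reads) was next, at 0.079. Nearest to the 25973 bp circRNA of Mlip were those of Ttn (76701331 to 76706142, 17, 10, 22 and 25 reads), at 0.081, and Tulp4 (26, 15, 26 and 34 reads), at 0.16. For Dysf they were Paip2 at 0.13 and the same chromosome 14 span at 0.17, and for Tpm1 Nlrp5-ps at 0.16 and Zmynd11 at 0.21. The likeness is a description over 4 libraries. It rests on 2 to 6 reads per library for the circRNAs of Mlip, Dysf and Tpm1. The neighbours of Dysf and Tpm1 other than the chromosome 14 span had as few. Sptbn1 was not listed in every library and was left out.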

How the data were processed

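Per the file headers, the authors deposited for each library and circRNA the count of back-splice junction reads, the count of non-junction reads and a circular share as a fraction. Twice-counted junction reads, divided by themselves plus non-junction reads, give the deposited share (largest deviation 0.0005), which was recomputed from the counts. The authors' deposited comparison table gives log2 fold changes, p-values and score columns. BWA 0.7.5a-r405, HTSeq 0.9.1 and build mm9 are named without a role, per the submitters' processing notes. For the circRNA caller, nothing is given in the sources used here. Listed counts start at 2 reads.

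Counts were tested with edgeR 4.0.16 (R 4.3.3), quasi-likelihood, TMM factors and Benjamini-Hochberg adjustment at 0.05 over all circRNAs tested: back-splice counts per circRNA and per host with 10 or more reads in all and listed in at least 2 libraries, and non-junction counts and their ratio to back-splice counts for circRNAs listed in every library. The ratio fit held a term per library and kind of read. SEs come from the F statistic and can lie below counting error at few reads. DESeq2 1.42.0, limma 3.58.1 and other scalings and filters were alternatives. Only the edgeR fits of back-splice counts per circRNA and of non-junction counts were run on simulated data, not the other steps. CircRNAs that were tested, listed in 2 or more libraries or held 5 or more reads in 1 library were to be named; the 2 others, from Mlip and Dysf, were named after their values were seen. The members, lists and rules were chosen with earlier results of these data known. Intervals cover counting error only: without molecular identifiers, PCR copies of a molecule count as separate reads.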

Additional observations from a re-analysis of the deposited data

How the results depend on the processing

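No paired analysis was possible because the groups share no replicate number. Calls over all circRNAs or hosts moved as follows. Back-splice calls went from 0 to 3 without a filter, and to between 0 and 1 when a library was left out. Host calls went from 0 to 1 without a filter, and to between 0 and 1 without a library. Non-junction calls went from 9 to 13 in limma-voom, 6 with the library size without Tpm1, 5 with DESeq2 size factors, 4 without factors, 5 with the back-splice total as library size, 1 with at least 20 back-splice reads and 2 in DESeq2, and ranged from 1 to 8 without a library. Calls of back-splice against non-junction reads went from 1 to 0 in DESeq2 and ranged from 0 to 2 without a library. The minimum of 20 back-splice reads left 1 circRNA of these hosts, the longer one of Fhl2, in the fits per circRNA, and 2 hosts, Fhl2 and Mlip, in that per host. None of the calls in back-splice reads, host sums or this ratio was at the 5 hosts, all 13 circRNAs included in the fit without a filter.

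Of 160 alternative fitted values for single circRNAs and hosts, 9 turned direction, and of 20 alternative differences in circular share 1 did, that of Fhl2, from 0.121 to -0.0878 percentage points without sham 2. The 43090 bp Mlip circRNA turned in back-splice reads with limma-voom (-0.44). The other fitted values turned when a library was left out. In back-splice reads the range was -0.57 (without I/R 4) to 0.019 (without sham 1) for Fhl2 and -0.68 (without sham 2) to 0.42 (without sham 1) for Tpm1. In host sums it was -0.22 (without I/R 4) to 0.057 (without I/R 3) for Fhl2, -1.91 (without I/R 4) to 0.17 (without sham 1) for Mlip, with 0.10 without I/R 3, and -0.54 (without sham 2) to 0.36 (without sham 1) for Tpm1. For Fhl2 it was -0.49 (without I/R 4) to 0.024 (without I/R 3) in non-junction reads and -0.054 (without sham 2) to 0.24 (without sham 1) in the ratio. The cause was not tested. With 1 library left in a group, that library was assumed to vary like the other group. The library size without Tpm1 was chosen after seeing the data. Among the 13 circRNAs no library held more than 15 back-splice reads of any, and there were 2 libraries per group.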
